A study of Mus musculus with 6 samples.

Results

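The RAB genes encode small GTP-binding proteins that switch membrane traffic on and off, and their promoters and surroundings were examined here in alveolar macrophages (AMs) for H3K27ac, the acetyl mark on lysine 27 of histone H3 that is found at promoters and enhancers in use. Members were taken by name alone, as the protein-coding genes of the mouse annotation (GENCODE vM21, genome build mm10) whose symbol is Rab, a number and at most a letter and a final l. This gave 58 genes of the 21644 protein-coding genes with an annotated start site on the 19 autosomes and X. The rule used no measured value, but it was chosen with earlier results of these data known. A further gene with such a name was not analysed here.

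A RAB protein carries lipid tails that anchor it to a membrane, is loaded with GTP by an exchange factor (GEF), and in that state binds effectors that move, tether or fuse vesicles, until a GTPase-activating protein (GAP) turns it off. Different members mark the endoplasmic reticulum (ER) and Golgi, early, recycling and late endosomes, lysosomes and secretory granules. AMs live in the alveoli as phagocytes and take up particles and surfactant, and in macrophages the maturation of a phagosome depends on the ordered arrival of RAB proteins of the endosome series.

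AMs were recovered by bronchoalveolar lavage from the lungs of wild-type C57BL/6J mice aged 9 weeks, labelled with antibodies, crosslinked in formaldehyde and purified by flow cytometry. H3K27ac was mapped by HT-ChIPmentation, in which the transposase Tn5 adds sequencing adapters to chromatin held on antibody beads. The series held 6 samples, which were 1 library made with an antibody from Active Motif, 2 replicate libraries made with an antibody from Cell Signaling, and 3 inputs used only in the authors' peak calling. The labels do not say whether the replicates came from separate animals, and antibody, sequencing run, sonicator and depth cannot be told apart.

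The libraries held 36364 (Active Motif), 56175 (Cell Signaling replicate 1) and 49139 (Cell Signaling replicate 2) peaks on these chromosomes, over 26.1, 45.8 and 59.8 Mb of the genome. Merging the Cell Signaling peaks and keeping regions that held a peak of each replicate gave 29277 shared regions. The promoters of 8 of 8 AM marker genes carried a peak in every library, and those of 0 of 5 T cell genes in any. Peaks were also present in Cell Signaling replicate 1 at 4 of 5 airway and 2 of 6 alveolar epithelial marker promoters, against 0 in the other libraries, and in both Cell Signaling replicates at Ms4a1 of the 4 B cell genes and S100a8 of the 5 neutrophil genes, and the part of such cells in the values of the RAB genes was not tested. The peak lists give positions and enrichment but no read counts, so where no peak is given the caller found none in that library with the reads it had, and read depth was not used here.

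The RAB genes were marked more often than protein-coding genes as a whole. A promoter peak, which is a peak that overlaps 1 kb either side of any start site of the gene, was present in the Active Motif library at 37 of 58 RAB genes (63.8%, 95% Wilson interval 50.9% to 74.9%), against 40.9% of all protein-coding genes. Cell Signaling replicate 1 had a peak at 41 RAB promoters (70.7%), against 47.8% of all genes, and replicate 2 at 42 (72.4%), against 48.8% of all genes. Shared Cell Signaling regions covered 40 RAB promoters (69%, 56.2% to 79.4%), against 46.4% of all promoters. These intervals cover counting error over genes only, and no test between the sets was made because genes of 1 chromatin sample are not replicates.

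Promoters fell mostly into those marked everywhere and those marked nowhere. A peak in all 3 libraries was found at 37 RAB genes (63.8%), against 40.8% of all genes, and a peak in no library at 15 RAB genes (25.9%), against 49.8% of all genes. The other 6 members differed between libraries. No RAB promoter was marked in the Active Motif library without a peak in both Cell Signaling libraries (0 of 58), which was also rare over all genes, at 0.0785%.

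**Figure D1:**
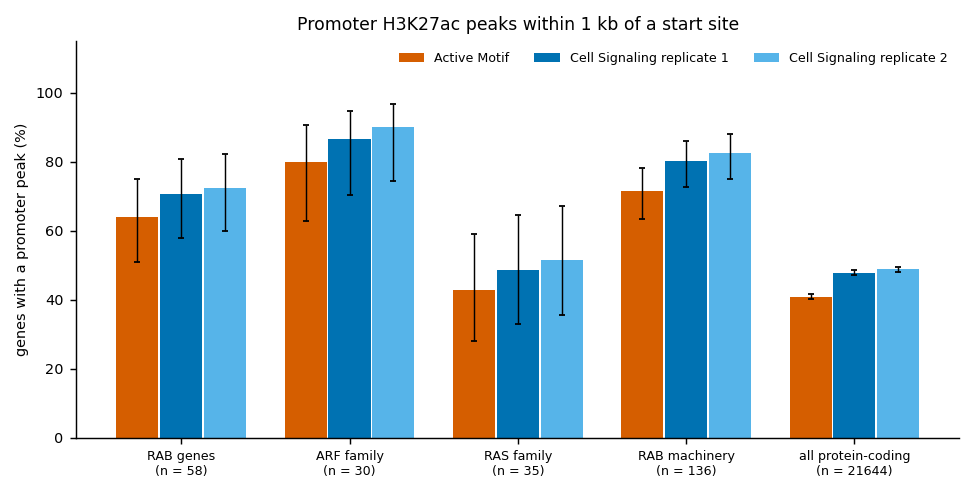
Share of genes (%) with a promoter H3K27ac peak in each of the 3 libraries, for the RAB genes, other small GTPase families, RAB machinery and all protein-coding genes, with 95% Wilson intervals as error bars. The RAB genes stand at 63.8%, 70.7% and 72.4%, and all protein-coding genes at 40.9%, 47.8% and 48.8%.

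The span of acetylation around the start site gave the same order of the sets. It was measured as the number of bases inside peaks within 5 kb of the start site, taking the site of the gene with the most. The median RAB gene had 962.5 (Active Motif), 1522 (Cell Signaling replicate 1) and 1875 bases (Cell Signaling replicate 2), against 0, 121.5 and 378.5 bases over all protein-coding genes. Among genes with a promoter peak in all 3 libraries, the median was 1943, 2479 and 3003 bases for the 37 RAB genes and 1276, 1948 and 2271 bases for all 8831 such genes. The Active Motif library had the fewest bases at 36 of these 37 RAB genes, the exception being Rab9, and Cell Signaling replicate 2 had the most at 32. The medians of all 8831 such genes follow the same order of libraries, and these counts were not made over them.

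**Figure D2:**
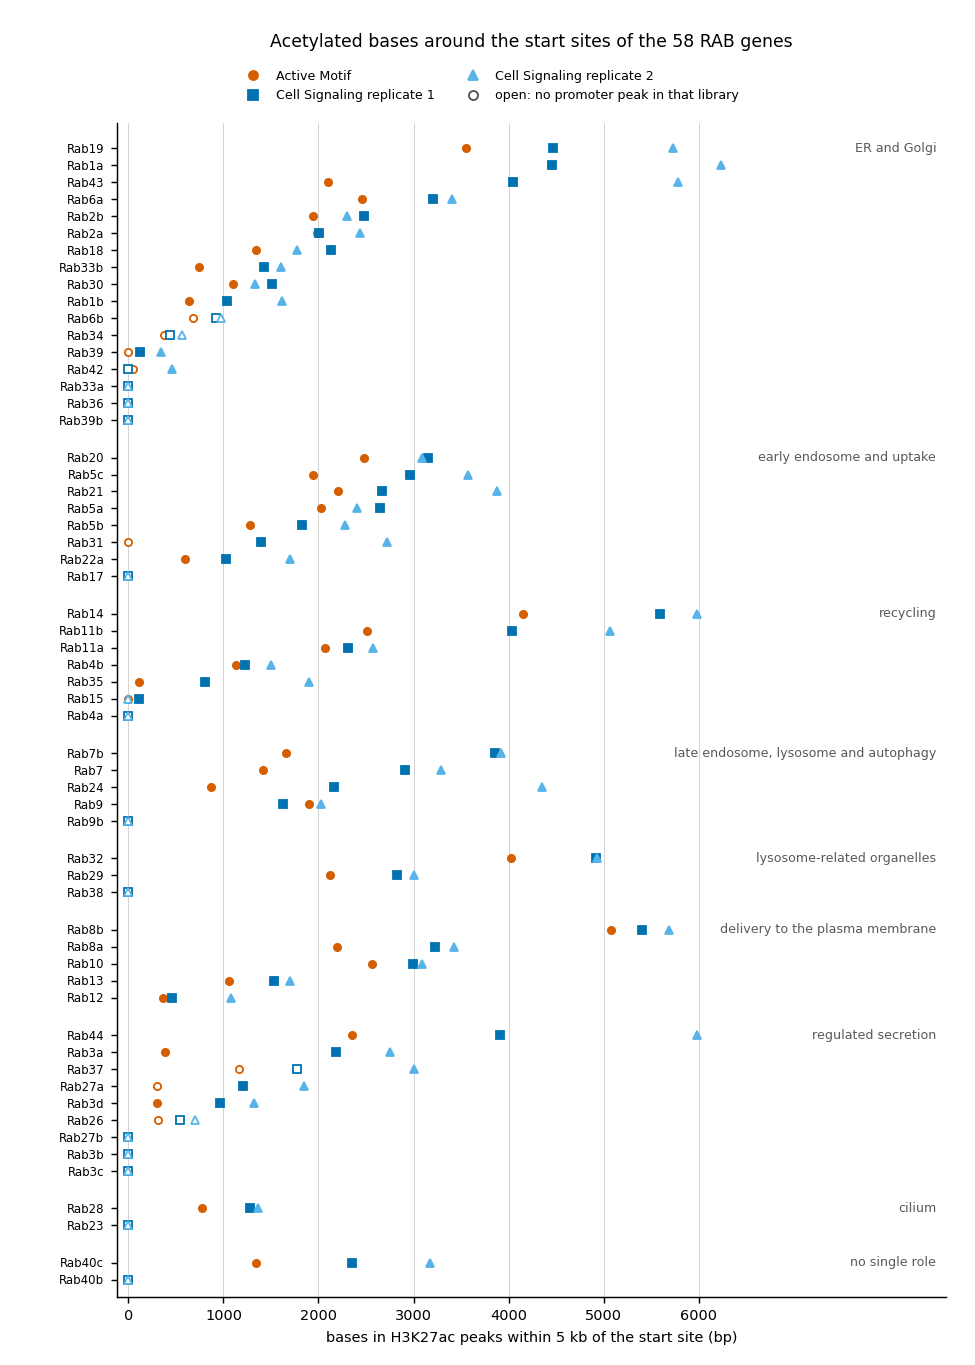
Bases in H3K27ac peaks (bp) within 5 kb of the start site for each of the 58 RAB genes, grouped by the role under which the gene was listed. Points are the 3 libraries, and open points mark libraries with no promoter peak. Rab14 and Rab8b lie above 4000 bases in every library, while 12 genes lie at 0 in all 3.

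The members with the most acetylated bases spanned several compartments. Rab14, which acts between the Golgi, endosomes and phagosomes, had 4153 (Active Motif), 5591 (Cell Signaling replicate 1) and 5987 (Cell Signaling replicate 2) bases. Rab8b, which directs vesicles to the plasma membrane, had 5076, 5409 and 5683 bases in the same order of libraries. These were the highest medians over the 3 libraries among the RAB genes, above 97.2% and 96.9% of all protein-coding genes.

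Rab32, a RAB of lysosome-related organelles that in mouse macrophages helps to deliver the metabolite itaconate to bacteria-containing vacuoles, had 4023, 4920 and 4931 bases. Rab1a, which starts transport from the ER to the Golgi, had 4444, 4452 and 6232 bases. Rab19 had 3552, 4470 and 5732 bases, but the start site of Slc37a3 also lies within 5 kb of it, and 2555, 2938 and 4306 of these bases were nearer to Rab19 than to any other start site. The next 5 members by median were Rab43, Rab11b, Rab44, Rab7b and Rab8a. Rab43, which acts at the Golgi and in mouse dendritic cells in cross-presentation, had 2103, 4050 and 5779 bases. Rab11b, of the recycling endosome, had 2507, 4041 and 5072 bases. Rab44, a long member with extra domains that in mouse mast cells acts in granule release, had 2356, 3915 and 5982 bases.

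Of the RAB genes of the early endosome and of uptake, 7 of 8 (87.5%) had a promoter in a shared Cell Signaling region. The share was 69% over all RAB genes and 46.4% over all genes. Rab5a, Rab5b and Rab5c, whose proteins drive fusion of early endosomes, were all marked in the 3 libraries. The strongest promoter peak of Rab5a, by the authors' fold enrichment over background, stood at 16.6-fold (Active Motif), 40.7-fold (Cell Signaling replicate 1) and 43.2-fold (Cell Signaling replicate 2). Rab5c had 14.7-fold, 36.5-fold and 45.4-fold, and Rab5b 13.2-fold, 24.99-fold and 35.7-fold. Rab20, which acts in phagosome maturation, had the strongest promoter peak of this group in the Active Motif library, with 31.5-fold, 54.6-fold and 54.2-fold over the 3 libraries. Rab21, a regulator of integrin traffic, had 23.4-fold, 47.7-fold and 47.4-fold. Rab22a was weaker, at 7.29-fold, 11.1-fold and 16.1-fold, and Rab17, known from transcytosis in epithelial cells, had no peak in any library.

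The late endosome and lysosome members were marked in shared regions in 4 of 5 cases (80%), against 69% of all RAB genes and 46.4% of all genes. Rab7, the RAB of late endosomes that brings about their fusion with lysosomes, had a promoter peak of 20.02-fold, 48.8-fold and 44.0-fold and 1420, 2910 and 3285 acetylated bases. Rab7b, which returns cargo from late endosomes to the Golgi, had a weaker peak, at 11.5-fold, 21.9-fold and 25.6-fold, but 1662, 3860 and 3919 bases. So within this pair the gene with the higher fold had fewer acetylated bases in each library. Rab9, which serves the return of lysosomal enzyme receptors to the Golgi, had 26.8-fold, 26.5-fold and 35.7-fold, and was, with Rab12, an exception among the 37 members marked everywhere in that its fold was not lowest in the Active Motif library. Over all 8831 genes marked everywhere the median fold was also lowest there, at 11.1-fold, 22.6-fold and 30.2-fold. Such exceptions were not counted over all genes. Rab24, of autophagy, had 864, 2167 and 4356 bases, of which 565, 1319 and 1630 were nearer to its own start site than to that of a neighbour such as Prelid1.

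In the recycling group 5 of 7 members (71.4%) were marked in shared regions, near the 69% of all RAB genes, against 46.4% of all genes. Rab11a had 18.9-fold, 45.0-fold and 45.6-fold enrichment and Rab11b 22.5-fold, 59.96-fold and 54.8-fold, the highest value of any RAB promoter in Cell Signaling replicate 1. Rab35, which returns cargo quickly to the plasma membrane, was weak by comparison, with 4.27-fold, 8.07-fold and 13.5-fold. Rab4a, of fast recycling, was without a promoter peak, whereas its paralogue Rab4b was marked at 7.85-fold, 18.1-fold and 22.1-fold.

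All 5 members listed here under delivery to the plasma membrane, Rab8a, Rab8b, Rab10, Rab12 and Rab13, were marked in the 3 libraries. The share so marked was 63.8% over all RAB genes and 40.8% over all genes. Each member was listed under a single role, which need not be its main one. Rab8b had 32.8-fold, 55-fold and 57-fold enrichment, the last being the highest of any RAB promoter in Cell Signaling replicate 2. Rab10, which in mouse macrophages carries the lipopolysaccharide receptor TLR4 to the surface, had 2563, 2990 and 3094 bases. Rab12 was the weakest of the group, with 6.40-fold, 4.997-fold and 12.6-fold and 369, 456 and 1083 bases. The promoter region of Rab13, known from the traffic of cell junctions, is shared with Rps27. Of its 1061 (Active Motif) and 1528 (Cell Signaling replicate 1) bases, 312 and 476 were nearer to Rab13. In Cell Signaling replicate 2 it had 1698 bases, but the 862 counted as its own there lay at its second start site.

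Among the ER and Golgi members 11 of 17 (64.7%) were in shared regions, near the 69% of all RAB genes, against 46.4% of all genes. The unmarked members were Rab6b, Rab33a, Rab34, Rab36 and Rab39b, with Rab42 marked in 1 library. Rab1a had the highest fold of any RAB promoter in the Active Motif library, 36.2-fold, and 48.4-fold and 49.1-fold in the Cell Signaling replicates. Rab2a, of ER and Golgi traffic and of lysosome fusion, had 23.0-fold, 30.8-fold and 38.3-fold. Rab6a, of transport within the Golgi, had 2463, 3210 and 3409 bases, but its start site lies within 1 kb of that of Mrpl48, and 1158, 1464 and 1398 bases were nearer to Rab6a. Rab18, of ER contacts with lipid droplets, had 13.7-fold, 28.8-fold and 35.7-fold at a start site far inside the annotated span of the gene, whose outermost 5′ end had no peak within 1 kb.

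Of the regulated secretion members, 4 of 9 were in shared regions, a share near the 46.4% of all genes. Rab3b and Rab3c, whose proteins act on synaptic and hormone vesicles, Rab26, of secretory granules, and Rab27b, of granule docking, had no promoter peak in any library. Rab3a had 6.80-fold, 14.2-fold and 16.1-fold, and Rab3d 4.30-fold, 7.30-fold and 14.3-fold, both low against the RAB medians of 14.1-fold, 26.5-fold and 34.9-fold over marked promoters. Rab44 was the strongest member here, at 10.6-fold, 30.4-fold and 41.9-fold. All marked protein-coding promoters had medians of 11.1-fold, 19.2-fold and 26.9-fold.

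Of the lysosome-related organelle genes, Rab32 (29.4-fold, 54.2-fold and 53.3-fold) and Rab29 (18.3-fold, 26.1-fold and 32.4-fold), whose protein recruits the kinase LRRK2 to membranes, were marked, and Rab38, known from melanosomes and the lamellar bodies of alveolar epithelium, had no peak and no acetylated base within 5 kb. In the cilium pair Rab28 was marked (26.8-fold, 44.2-fold and 42.7-fold) and Rab23, a negative regulator of Hedgehog signalling, was not. Rab40c, an adaptor of ubiquitin ligases, was marked at 13.4-fold, 17.3-fold and 24.7-fold, and Rab40b was not.

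The 15 members with no promoter peak in any library were Rab3b, Rab3c, Rab4a, Rab6b, Rab9b, Rab17, Rab23, Rab26, Rab27b, Rab33a, Rab34, Rab36, Rab38, Rab39b and Rab40b. Of these, 12 had no acetylated base within 5 kb of a start site in any library. The other 3 were Rab6b, Rab26 and Rab34. Rab6b had 682, 922 and 979 bases, all nearer to it than to another start site. Rab26 had 308, 543 and 698 bases and Rab34 had 374, 435 and 567, but every one of these lay nearer to the start site of another gene, which for Rab34 was Rpl23a or Proca1.

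Of the members that differed between libraries, Rab27a, Rab31 and Rab39 had a promoter peak in both Cell Signaling replicates but none in the library made with the Active Motif antibody. These were 5.17% of the RAB genes, against 5.67% of all genes. Rab31, of traffic between the Golgi and endosomes, had 5.38-fold and 11.0-fold promoter peaks in the Cell Signaling replicates, with 1392 and 2724 bases, against 0 bases in the Active Motif library. Rab27a, which docks lysosome-related granules at the cell surface, had 6.53-fold and 13.3-fold. Rab39, which acts in phagosome acidification, had 3.46-fold and 5.79-fold, among the weakest RAB promoter peaks.

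A promoter peak in a single Cell Signaling library was found at Rab15 (2.56-fold, replicate 1), Rab37 (5.28-fold, replicate 2) and Rab42 (6.29-fold, replicate 2). They were 5.17% of the RAB genes, against 3.6% of all genes. Rab15, of endosome recycling in neurons, is the weakest of all marked RAB promoters, and its peak of 110 bases lies at the second of 4 groups of start sites. Rab37, which in mast cells sits on secretory granules, had 1160, 1776 and 3003 acetylated bases within 5 kb although only replicate 2 had a peak within 1 kb.

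Paralogues shared a state in some sets and not in others. The members formed 16 sets of close paralogues with 35 genes. In 6 sets, Rab1, Rab2, Rab5, Rab7, Rab8 and Rab11, all 13 genes had a promoter peak in the 3 libraries. In 7 sets, Rab3, Rab4, Rab6, Rab9, Rab32 with Rab38, Rab33 and Rab40, at least 1 gene was marked in every library and at least 1 in none. Within Rab33, Rab33b, which binds the autophagy protein ATG16L1, had 6.40-fold, 7.48-fold and 25.8-fold, and Rab33a had no peak. In the other 3 sets, Rab22a with Rab31, Rab27 and Rab39, at least 1 gene differed between antibodies.

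**Figure D3:**
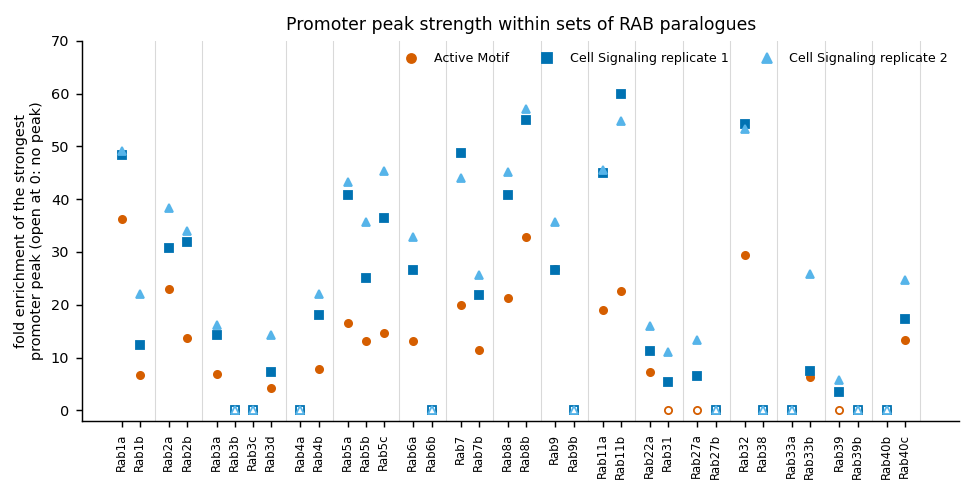
Fold enrichment (MACS3) of the strongest promoter peak in each library for the 35 RAB genes in 16 sets of paralogues, with vertical lines between sets; open points at 0 mark libraries without a promoter peak. Rab11b and Rab8b reach 59.96-fold and 57-fold in a Cell Signaling replicate, while Rab9b and Rab38 are at 0 beside Rab9 and Rab32.

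Sets differed in how even their marked members were. Rab1a (36.2-fold, 48.4-fold and 49.1-fold) stood well above Rab1b (6.62-fold, 12.3-fold and 22.1-fold) in every library. Rab8b was above Rab8a (21.3-fold, 40.7-fold and 45.1-fold) in every library, and likewise Rab11b above Rab11a. Rab2a and Rab2b, by contrast, had 30.8-fold and 31.9-fold in Cell Signaling replicate 1 and changed order in the other libraries, where Rab2b had 13.6-fold (Active Motif) and 34.0-fold (Cell Signaling replicate 2). The start site of Tox4 lies within 1 kb of that of Rab2b, and its part in this peak was not tested.

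Few members lie on the X chromosome. Of the 4 RAB genes on X, Rab9 was marked in all 3 libraries and Rab9b, Rab33a and Rab39b in none. The share marked in all 3 libraries was 25% for these 4 and 25.6% for all 948 protein-coding genes of X, against 66.7% of the 54 autosomal RAB genes and 41.5% of all autosomal genes.

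Start sites of a member could differ in state. The sites fell into more than 1 group in 10 members and into a single group in 48. Rab43 alone had a peak in every library at all its groups, but its 2 groups lie 2025 bp apart. In each library the same strongest peak reached both. Groups were not counted over all genes. At Rab7 the first group carried the peak of 20.02-fold, 48.8-fold and 44.0-fold and the second, inside the gene, none. Rab30, a Golgi RAB, had 22.2-fold, 42.7-fold and 47.6-fold at its first site and no peak at the second. Rab44 likewise had no peak at its second site, while Rab13 had a weaker peak at its second site than at its first, in the Cell Signaling replicates only, and the lone promoter peaks of Rab15 and Rab37 lay at their second sites.

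The acetylated stretch reached further downstream of the start site than upstream, in RAB genes and in all marked genes. Among the 37 RAB genes marked in all libraries, a peak covered the position 1 kb downstream of the start site in 37.8% (Active Motif), 54.1% (Cell Signaling replicate 1) and 67.6% (Cell Signaling replicate 2), against 29.6%, 46.6% and 52.9% of all marked genes. At 1 kb upstream the shares were 21.6%, 35.1% and 40.5% for the RAB genes, close to the 19.1%, 34.3% and 39.3% of all marked genes. At 2 kb downstream the shares were 21.6%, 27% and 35.1% for the RAB genes, against 11.0%, 17.2% and 22.5% for all marked genes. At 2 kb upstream they were 2.70%, 8.11% and 10.8% for the RAB genes, against 7.16%, 12.1% and 15.3%.

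**Figure D4:**
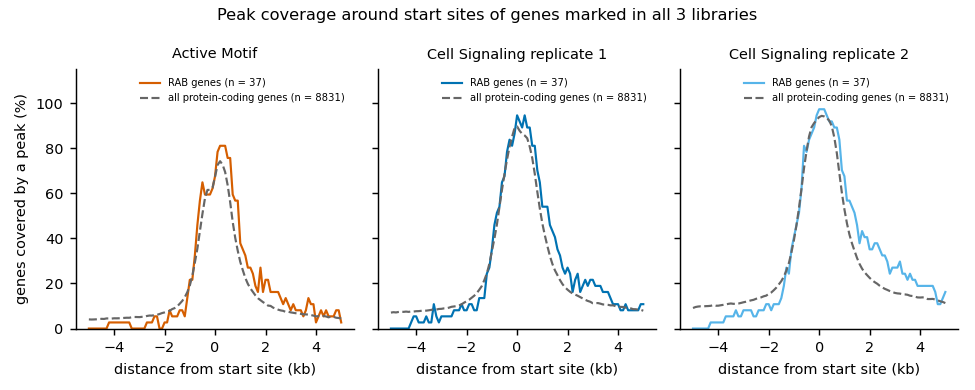
Share of genes (%) covered by a peak at each distance (kb) from the start site, with positive distances inside the gene, for the 37 RAB genes (solid) and all 8831 protein-coding genes (dashed) marked in every library, 1 panel per library. The RAB line lies above the dashed line at 2 kb downstream (21.6%, 27% and 35.1%) and below it at 2 kb upstream.

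Promoter sequence was taken from RefSeq (build GRCm38.p6, the assembly of mm10), with windows of 250 bases before and 50 after a start, for 47 of the 58 members (59 windows). The median RAB window held 20 CpG dinucleotides, against 14 over all 20054 windows. RAB windows marked in all 3 libraries held a median of 25, and unmarked ones 12, against 22 and 5 over all windows. With windows split by CpG number, at limits chosen after the values were seen, a peak in all 3 libraries was found at 24 of 30 RAB windows with 20 or more CpG (80.0%, against 67.5% of all such windows), 10 of 18 with 10 to 19 (55.6%, against 52.8%) and 3 of 11 with fewer than 10 (27.3%, against 12.8%). The RAB share was the higher in each class, and by the least in the class of 10 to 19. The classes are small, no interval was computed, and some genes, such as Rab15 and Rab43, gave several windows.

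Single promoters departed from this order. Rab6b held 42 CpG in its window and no promoter peak, and Rab9 and Rab19 held 9 each and had a peak in all 3 libraries. Rab32 held 10, below the median of 12 in unmarked RAB windows, and had a peak of 29.4-fold to 54.2-fold. The printed sequences show members from both ends of the range of acetylated bases, and Rab5a, which lay between them at rank 18 by median. Printed are the bases before the RefSeq start and outside annotated exons, on the strand of the gene. Capitals mark any of the motifs listed after them. Rab14 (chr2:35201121-35201370, minus strand), Rab8b (chr9:66919706-66919955, minus), Rab32 (chr10:10558266-10558457, minus) and Rab5a (chr17:53478984-53479233, plus) were marked in every library, and Rab23 (chr1:33719646-33719894, plus) and Rab17 (chr1:90967668-90967917, minus) in none.
Rab14 promoter: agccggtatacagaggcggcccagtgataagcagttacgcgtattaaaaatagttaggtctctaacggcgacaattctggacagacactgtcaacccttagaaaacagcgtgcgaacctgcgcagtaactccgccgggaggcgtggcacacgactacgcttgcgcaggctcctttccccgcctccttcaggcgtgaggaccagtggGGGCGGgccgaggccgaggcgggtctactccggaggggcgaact
Rab8b promoter: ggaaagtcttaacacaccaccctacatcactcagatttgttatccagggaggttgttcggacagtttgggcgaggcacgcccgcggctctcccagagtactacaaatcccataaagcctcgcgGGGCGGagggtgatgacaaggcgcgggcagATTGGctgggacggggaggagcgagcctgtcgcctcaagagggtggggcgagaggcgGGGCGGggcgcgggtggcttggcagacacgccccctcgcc
Rab32 promoter: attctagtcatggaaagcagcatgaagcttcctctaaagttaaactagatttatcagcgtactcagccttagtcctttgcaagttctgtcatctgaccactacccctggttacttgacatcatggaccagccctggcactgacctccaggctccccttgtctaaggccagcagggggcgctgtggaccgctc
Rab5a promoter: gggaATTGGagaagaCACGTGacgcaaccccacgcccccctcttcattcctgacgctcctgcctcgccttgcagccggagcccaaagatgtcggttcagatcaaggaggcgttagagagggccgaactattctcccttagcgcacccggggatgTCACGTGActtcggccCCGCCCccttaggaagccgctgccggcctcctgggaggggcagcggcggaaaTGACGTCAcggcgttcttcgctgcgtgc
Rab23 promoter: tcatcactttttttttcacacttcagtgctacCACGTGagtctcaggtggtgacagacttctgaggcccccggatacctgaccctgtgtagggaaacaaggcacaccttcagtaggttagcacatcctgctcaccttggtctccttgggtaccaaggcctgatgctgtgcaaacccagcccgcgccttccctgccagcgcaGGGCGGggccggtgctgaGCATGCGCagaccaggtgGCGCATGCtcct
Rab17 promoter: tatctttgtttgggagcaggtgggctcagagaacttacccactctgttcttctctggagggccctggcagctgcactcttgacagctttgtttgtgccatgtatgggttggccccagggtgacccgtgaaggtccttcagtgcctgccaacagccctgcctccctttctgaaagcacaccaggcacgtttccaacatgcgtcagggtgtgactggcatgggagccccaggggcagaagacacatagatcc

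The motifs searched, on both strands, were those of ETS factors (ACCGGAAGT), NRF1 (GCGCATGC), CREB (TGACGTCA), ZBTB33 (CTCGCGAG), the lysosomal CLEAR element (TCACGTGA), the E-box (CACGTG, which lies within CLEAR), NFY (CCAAT), SP (GGGCGG), YY1 (AAGATGGC), the TATA box (TATAAA), PU.1 (GAGGAAGT), C/EBP (TTGCGCAA or TTGCACAA), AP-1 (TGACTCA or TGAGTCA) and the core of a nuclear receptor direct repeat (AGGTCAAAG). The SP letters were in 41 of 59 RAB windows (69.5%), against 47.9% of all windows, and in 70.3% of RAB windows marked in 3 libraries, against 66.9% of all such windows. CLEAR letters were in 3 RAB windows, those of Rab5a, Rab21 and Rab24 (5.08%, against 1.27% of all windows). Rab5a also held the CREB letters and NFY and SP letters, as its printed promoter shows, and the unmarked Rab23 held 2 matches to the NRF1 letters. PU.1 letters were in the windows of Rab2b and Rab32 (3.39%, against 3.12% of all windows), at Rab32 in bases not printed here, and the TATA letters were in 6.78% of RAB windows and 12.1% of all. A match of letters is no evidence that a factor binds there.

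Regions away from promoters were assigned to the nearest start site of a protein-coding gene. A distal region was a shared Cell Signaling region whose midpoint lay over 3 kb from every such site. Of the 58 RAB genes, 21 had at least 1 distal region (36.2%), against 27.3% of all genes, and 6 had 5 or more (10.3%), against 5.31% of all genes. The intervals were wide, from 25.1% to 49.1% and from 4.83% to 20.8%. Counting each library alone, 18, 24 and 27 RAB genes had a distal peak, against 20.2%, 33% and 33.1% of all genes, where the RAB shares were 31.0%, 41.4% and 46.6%. The excess did not hold for the mean among genes with a promoter peak in all 3 libraries. There the mean number of distal regions was 1.43 for the 37 RAB genes and 1.60 for all 8831 such genes, with a median of 0 in both. The mean number of distal peaks per library was 1.62, 2.81 and 2.92, against 1.94, 3.21 and 3.02. The medians were 0, 1 and 2, against 0, 0 and 1.

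The 67 distal regions nearest to RAB genes lay a median of 15.4 kb from the start site, against 23.3 kb for all 18637 distal regions. An Active Motif peak overlapped 37 of them (55.2%), against 51.8% of all distal regions. Of the 67 regions, 38 were inside the RAB gene itself, 10 upstream and 19 downstream, and 46 had their midpoint in an intron. Places were not counted over all distal regions, so these numbers are not set against a background. Nearness does not show which gene a region acts on, and several of those outside lay within other genes.

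**Figure D5:**
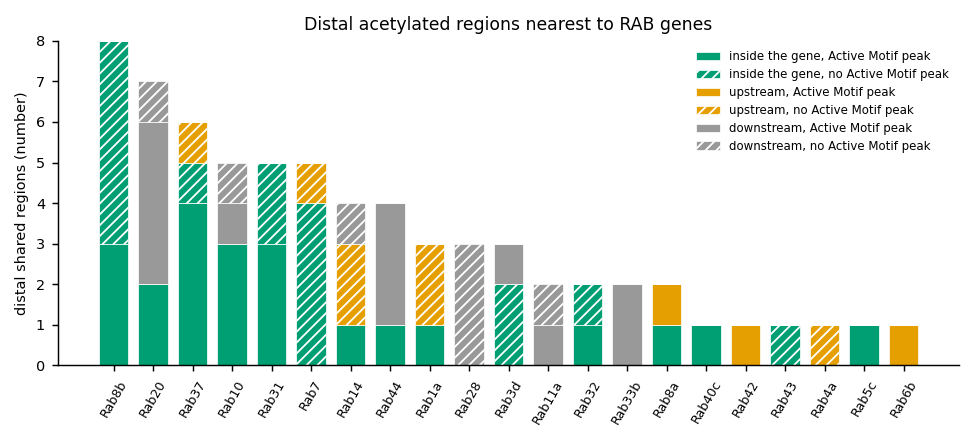
Number of distal shared Cell Signaling regions nearest to each of the 21 RAB genes that had any, coloured by place relative to the gene and hatched where no Active Motif peak overlapped. Rab8b leads with 8, all inside the gene, and Rab20 follows with 7, of which 5 lie downstream.

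Rab8b had 8 distal regions, all in its introns. The widest, chr9:66877884-66891561, covered 13678 bp at 35.0 kb from the start site and held peaks of 36.4-fold (Active Motif), 72.6-fold (Cell Signaling replicate 1) and 51.8-fold (Cell Signaling replicate 2). In the first 2 of these libraries it exceeded the promoter peak of Rab8b, which stood at 32.8-fold and 55-fold, and in Cell Signaling replicate 2 it was below the promoter at 57-fold. The next region, chr9:66892194-66897338, had 22.6-fold, 40.7-fold and 24.96-fold. The 4 regions nearest to the start site were weak, at 3.46-fold to 4.997-fold in Cell Signaling replicate 1, and none had an Active Motif peak.

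Rab20 had 7 distal regions. The strongest, chr8:11462454-11465882 in an intron of Rab20, had 18.6-fold, 50.4-fold and 42.9-fold, and a second intronic region had 5.997-fold, 7.69-fold and 15.0-fold. The other 5 lay downstream, 4 of them in introns of the collagen gene Col4a2, and 6 of the 7 had an Active Motif peak.

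Rab31 had 5 regions in its introns. The region chr17:65724020-65728129, 46.6 kb from the start site, had 12.3-fold, 41.5-fold and 42.1-fold, the highest in both Cell Signaling replicates, and its neighbour chr17:65729321-65731277 had 14.6-fold, 34.2-fold and 32.2-fold, the highest in the Active Motif library. The promoter of Rab31 had 5.38-fold and 11.0-fold in the Cell Signaling replicates and no peak in the Active Motif library, so in each library its introns held the stronger peaks. Rab37 was alike, with 5 of 6 regions in introns, the strongest, chr11:115108524-115111454, at 9.73-fold, 16.9-fold and 22.1-fold, and a promoter peak of 5.28-fold in a single library.

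Rab10 had 5 regions, of which chr12:3234954-3236551, 74.2 kb downstream, had 19.6-fold, 43.8-fold and 32.0-fold, the highest in the first 2 libraries, and lies within 1 kb of the start of the non-coding gene Rab10os. An intronic region, chr12:3281548-3286134, had 17.5-fold, 22.4-fold and 37.3-fold, the highest in Cell Signaling replicate 2. Rab7 had 5 weak regions, from 4.09-fold to 5.38-fold in Cell Signaling replicate 1, and none had an Active Motif peak. Among all 67 regions, 7 had a non-coding start site within 1 kb, which was not counted over all distal regions.

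Rab44 had 4 regions, all with an Active Motif peak, and 3 of them lay in Cpne5 downstream, among them chr17:29154787-29158923 at 20.3-fold, 42.3-fold and 38.2-fold and chr17:29160155-29165444 at 13.2-fold, 40.4-fold and 41.2-fold, which led in Cell Signaling replicate 2. Rab14 had 4, of which chr2:35193583-35201962 reached over its promoter and held 9 (Active Motif), 6 (Cell Signaling replicate 1) and 1 (Cell Signaling replicate 2) peaks. Rab1a, Rab3d and Rab28 had 3 each, and those of Rab28 lay 259 to 521 kb away with no Active Motif peak. Rab8a, Rab11a, Rab32 and Rab33b had 2 each. The regions of Rab11a were in Megf11 and those of Rab33b in exons of Setd7.

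Single regions belonged to Rab4a, Rab5c, Rab6b, Rab40c, Rab42 and Rab43. Of the 21 genes with a distal region, 4 had no promoter in a shared region, which were Rab4a, Rab6b, Rab37 and Rab42. The region of Rab42, chr4:132308264-132309941, had 18-fold, 33.8-fold and 43.2-fold, but it has the starts of the non-coding gene Snhg12 and of small nucleolar RNAs within 1 kb. The region of Rab6b, 3.30 kb upstream of the start site, had 12.8-fold, 17.7-fold and 24.3-fold. A promoter in a shared region without any distal region was found at 23 RAB genes, among them Rab11b, Rab19 and Rab29. The same count was not made over all genes.

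The sequences at the summit of the distal region with the highest fold in Cell Signaling replicate 1 show what stretch of DNA carried that peak at the members with the most regions. Each is the 200 bases around the summit in Cell Signaling replicate 1 on the plus strand of GRCm38.p6, with the same motifs in capitals. Rab8b is chr9:66880178-66880377, Rab20 chr8:11463850-11464049, Rab37 chr11:115110561-115110760, Rab7 chr6:88027715-88027914, Rab10 chr12:3235305-3235504 and Rab31 chr17:65726615-65726814.
Rab8b distal summit: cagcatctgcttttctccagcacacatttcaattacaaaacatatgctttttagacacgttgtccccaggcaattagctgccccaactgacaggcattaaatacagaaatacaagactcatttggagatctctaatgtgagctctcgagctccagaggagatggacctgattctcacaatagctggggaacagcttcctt
Rab20 distal summit: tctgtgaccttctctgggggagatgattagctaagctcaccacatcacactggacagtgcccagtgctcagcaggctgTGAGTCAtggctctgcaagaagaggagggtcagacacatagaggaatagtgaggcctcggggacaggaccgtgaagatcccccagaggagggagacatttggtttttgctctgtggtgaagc
Rab37 distal summit: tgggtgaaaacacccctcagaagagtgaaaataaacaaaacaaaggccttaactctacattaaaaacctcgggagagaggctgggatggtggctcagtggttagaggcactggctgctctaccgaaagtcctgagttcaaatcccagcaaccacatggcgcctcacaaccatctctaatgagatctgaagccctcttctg
Rab7 distal summit: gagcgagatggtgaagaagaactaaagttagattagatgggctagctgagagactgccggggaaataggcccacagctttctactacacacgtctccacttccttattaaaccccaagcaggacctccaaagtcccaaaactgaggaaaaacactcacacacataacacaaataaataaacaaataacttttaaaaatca
Rab10 distal summit: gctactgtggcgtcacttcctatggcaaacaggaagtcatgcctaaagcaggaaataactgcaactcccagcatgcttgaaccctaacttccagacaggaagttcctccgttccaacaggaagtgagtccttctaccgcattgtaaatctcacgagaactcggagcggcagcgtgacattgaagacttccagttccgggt
Rab31 distal summit: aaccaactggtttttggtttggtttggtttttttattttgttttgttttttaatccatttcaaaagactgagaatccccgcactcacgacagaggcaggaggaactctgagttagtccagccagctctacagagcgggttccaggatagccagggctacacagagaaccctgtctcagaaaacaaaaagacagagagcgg

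Of these 6 summits only that of Rab20 held motif letters, those of AP-1. Over all 67 RAB windows the AP-1 letters were in 7 (10.4%), against 6.78% of all 18637 distal windows, and the PU.1 letters in 2 (2.99%), against 4.91%. Windows with AP-1 letters were 2 at Rab11a, 2 at Rab20 and 1 each at Rab8b, Rab32 and Rab37. Distal windows held a median of 2 CpG in both sets, against 20 in the RAB promoter windows of 300 bases.

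The genes that load, regulate and read RAB proteins were marked still more often than the RAB genes. Of 136 such genes, 109 had a promoter in a shared region (80.1%), against 69% of the RAB genes and 46.4% of all genes. All 8 genes of prenylation and membrane extraction were marked, among them Chm, which presents RAB proteins for lipid attachment (17.9-fold, 35.4-fold and 37.5-fold), and Rabggtb, a subunit of the enzyme that attaches the lipid (14.2-fold, 25.8-fold and 33.9-fold). Chml, the paralogue of Chm, was marked in the Cell Signaling replicates only (4.61-fold and 9.09-fold), and Rabggta had 7.07-fold, 11.1-fold and 14.5-fold.

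Among GEFs 29 of 34 were marked. Rabgef1, the exchange factor of Rab5, had 25.8-fold, 73.4-fold and 28.9-fold, and Rin3, another Rab5 exchange factor, had 6202, 7124 and 7606 acetylated bases, more than any RAB gene in each library. Rin2 had 3.84-fold and 7.07-fold in the Cell Signaling replicates only. The GEFs with no peak in any library were Rin1, Dennd2a, Dennd2c and Dennd5b.

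GAPs were marked in 27 of 34 cases, with Rab3gap2 at 23.4-fold, 39.2-fold and 35.2-fold, Rab3gap1 at 9.38-fold, 18.1-fold and 27.3-fold, Rabgap1 at 7.85-fold, 14.2-fold and 32.8-fold, and Rabgap1l without a peak. Tbc1d8, Tbc1d30, Evi5, Sgsm1 and Grtp1 were also without one, and Tbc1d4 had one in Cell Signaling replicate 2 only. Effectors were marked in 45 of 60 cases. Eea1, the tether of early endosomes that binds Rab5, had 9.80-fold, 14.6-fold and 27.8-fold, and the Rab5 effector Rabep1 had 11.8-fold, 19.6-fold and 22.9-fold. Rbsn, which joins Rab4 and Rab5 on endosomes, had 11.9-fold, 18.8-fold and 33.3-fold, and Rabep2 had 4.997-fold and 8.36-fold in the Cell Signaling replicates only. The 14 effectors with no peak in any library included Sytl1, Sytl2, Sytl3, Sytl4 and Sytl5, which bind Rab27. Of the other Rab27 effectors listed, Myrip, Rph3a and Rph3al were also without a peak. Unc13d had 4.96-fold, 7.69-fold and 19.2-fold, and Mlph had 5.77-fold and 3.7998-fold in the Cell Signaling replicates only.

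Other small GTPase genes gave shares on either side of that of the RAB genes. In shared regions the RAB family had 40 of 58 promoters (69%), the ARF family, which recruits vesicle coats, 26 of 30 (86.7%), and the RAS family, which relays growth signals, 17 of 35 (48.6%). Median acetylated bases were 962.5, 1522 and 1875 for RAB genes, against 1146, 1688 and 2053.5 for ARF genes and 0, 102 and 964 for RAS genes. Distal regions numbered 67 nearest to the 58 RAB genes, a mean of 1.16 per gene, against 0.861 over all protein-coding genes. The 30 ARF genes had 25 such regions, fewer per gene than the RAB genes, and the 35 RAS genes had 52, more per gene.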

How the data were processed

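H3K27ac HT-ChIPmentation libraries of sorted AMs were analysed from the deposited MACS3 peak lists. Per the study's methods, the authors trimmed reads with Cutadapt, aligned them to mm10 with Bowtie2, marked duplicates with Picard, kept properly paired reads that were not duplicates with SAMtools, and called peaks for each library against input at a q-value of 0.05. The submitters' processing notes also name bcl2fastq 2.20.0.422 and CASAVA. The deposited columns hold a display score made by MACS3, the fold enrichment at the summit over local background, and the −log10 p and −log10 q values that the authors' caller gave, with the summit offset in bases. Signals were not scaled between libraries here, so a difference in fold between libraries is given as a description only.

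Peaks on 20 chromosomes (19 autosomes and X) were joined to 41157 start sites of protein-coding transcripts of GENCODE vM21. Peaks within 1 kb of a start site counted as promoter peaks, overlaps needed 1 bp, and distal regions lay over 3 kb away. Wilson 95% intervals were computed with statsmodels 0.14.6, in Python 3.11.15 with numpy 2.4.6 and matplotlib 3.10.9. The counting was tested on simulated data, where 3020 of 3020 comparisons matched. No p-value was computed, since the design has 1 Active Motif and 2 Cell Signaling libraries. Promoter sequences are from RefSeq (GRCm38.p6) and matched 47 of 58 members. Rab2a, Rab4a, Rab7b, Rab18, Rab26, Rab27b, Rab30, Rab36, Rab37, Rab38 and Rab44 were not matched. Members named with values were the 10 with the most acetylated bases, the 10 with most distal regions, those without a promoter peak or marked in some libraries only, and the paralogues. Further members are named to describe each role. Of the RAB machinery, the first 4 listed genes of a class and up to 5 that went against its majority were named. Myrip, Rph3a, Rph3al, Unc13d and Mlph were added after their values were seen. The members and lists were chosen with earlier results of these data known. Alternatives changed the promoter window, the start sites, the q-value, the number of peaks, the overlap, the distal limit and the replicates used. Some listed genes of other families are not reported here.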

Additional observations from a re-analysis of the deposited data

How the results depend on the processing

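The count of RAB promoters in shared Cell Signaling regions, 40, was 33 with 50% reciprocal overlap of the replicates' peaks (56.9%, against 38.2% of all genes), 37 when the 3 members with another start site within 1 kb were left out, an alternative added after seeing the data, and 39 to 42 under the others. Leaving out Cell Signaling replicate 1 gave 42 and leaving out replicate 2 gave 41. The number of distal regions depended more on the processing. Against 67, it was 43 with 50% reciprocal overlap, 43 when regions had to lie beyond 10 kb, and 38 when only regions inside the RAB gene were kept, an alternative chosen after seeing the data. It was 131 to 133 with 1 Cell Signaling replicate left out, 133 without replicate 1 and 131 without replicate 2. Peaks of the replicate kept then needed no partner, and they were no longer merged with peaks of the other. The part of each change in the rise was not counted. Rab15, Rab37 and Rab39 changed state in more than 1 alternative of the promoter window, start site, q-value or number of peaks. Rab27a and Rab31 changed only where a Cell Signaling replicate was left out. As both replicates mark these genes, leaving either out must lower their number of marked libraries. No paired analysis was possible because the replicate numbers are shared only by the Cell Signaling libraries and inputs, inputs have no peak lists here, and no result comes from a test. Read depth was not used here, so its part in weak or absent peaks was not tested.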
